A study of Mus musculus with 12 samples.

Results

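The dystrophin-glycoprotein complex was followed through 9 genes: dystrophin (Dmd) and its relative utrophin (Utrn), dystroglycan (Dag1), the α-, β- and δ-sarcoglycans (Sgca, Sgcb, Sgcd), α-dystrobrevin (Dtna), the laminin α2 chain (Lama2) and agrin (Agrn). They were chosen by gene symbol, 9 of the 24421 genes counted, and all 9 had enough reads to be tested. The 12 RNA-seq libraries came from cardiomyocytes of CD1 mouse hearts at postnatal day 1, sorted on a YFP reporter and on Mitotracker, a dye of mitochondrial content. Cells with high Mitotracker signal are the Tnnt2low and those with low signal the Tnnt2high population, by the pairing of the paper. WT and Glut1 transgenic hearts carried the αMHC-Cre transgene and the R26+/YFP reporter, which marks cells in which Cre was active, and the Glut1 transgenic hearts also carried human GLUT1 under the αMHC promoter (aMHC-hGLUT1tg). There were 4 Glut1 transgenic libraries of each population, with both populations sorted from the same heart, and 2 WT libraries of each population, whose sample names begin with the same heart number and may thus be 1 heart. Nothing says that the 2 WT libraries of a population came from separate animals, so the spread between them may be technical. The main test pools the spread of all 4 groups in 1 fit. Its p-values for WT thus rest in part on the spread between Glut1 transgenic hearts.

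The complex ties the actin skeleton inside a muscle cell to the basement membrane around it. Dystrophin binds actin at one end and β-dystroglycan at the other. α-Dystroglycan, cut from the same precursor as β-dystroglycan, carries sugar chains that hold laminins and agrin outside the cell. The sarcoglycans steady dystroglycan in the membrane, and dystrobrevin brings syntrophins and signalling proteins to the inner face. Loss of dystrophin, of a sarcoglycan or of laminin α2 causes muscular dystrophy, with heart disease in several of its forms. Utrophin, which is related to dystrophin and can stand in for it, is abundant in fetal muscle and later gathers at neuromuscular junctions. Agrin is a large proteoglycan of basement membranes, known from the neuromuscular junction, and it is also known in the newborn mouse heart, where agrin from the matrix acts on dystroglycan and bears on regeneration.

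Before the members, the libraries were described. Reads in genes ranged from 4065306 to 9815069 per library, and the Glut1 transgenic Tnnt2low libraries (7301762 to 9815069) lay above the Tnnt2high libraries of the same hearts (4065306 to 5241475). For each read in a gene, 0.886 to 1.07 reads were counted to no exon in the Glut1 transgenic Tnnt2low and 2.26 to 2.63 in the Tnnt2high libraries. In WT these values were 1.13 to 1.5 and 1.51 to 1.83. The strand setting of the counts was not given, so such reads need not lie outside every exon. Tnnt2, the gene that names the populations, read 12660.5 to 13976.1 CPM (the count scaled to library size, after TMM scaling) in Tnnt2low and 16085.9 to 20829.9 CPM in Tnnt2high libraries of Glut1 transgenic hearts. In WT the Tnnt2 ranges overlapped, at 15741.3 to 16730.5 and 16254.4 to 17201.3 CPM. Slc2a1, the mouse Glut1 gene, read 33.5 to 92.5 CPM in Glut1 transgenic and 13.3 to 28.9 CPM in WT libraries. The transgene is of human sequence, so this count does not measure it directly. The 8 summed cardiomyocyte markers read 123792.1 to 158371.1 CPM over all 12 libraries. The 8 fibroblast markers summed to 46.4 to 99.8 CPM in Glut1 transgenic Tnnt2low and 149.2 to 897.8 CPM in Tnnt2high libraries. There 5 of 8 were called lower in Tnnt2low, against 8.33% of all tested genes. In WT Tnnt2low and Tnnt2high libraries they summed to 106.8 to 152.2 and 103 to 465.1 CPM, with Tcf21 at 0 in Tnnt2low. The 8 endothelial markers summed to 8.6 to 76.2 and 29.5 to 236.6 CPM in Glut1 transgenic libraries, in the same order. In WT libraries they summed to 13.3 to 83.5 and 15.9 to 322.3 CPM. In Glut1 transgenic hearts edgeR called 0 of 8, against 16.7% of all tested genes. At an unadjusted p under 0.05 in edgeR stood 5 of 8, against 31% of all tested genes. Leukocyte markers stayed at or under 8.07 CPM and erythroid markers at or under 18.6 CPM. The summed lists of smooth muscle and pericytes (1459.5 to 1985.2 CPM), Schwann cells and neurons (166.5 to 249.9 CPM), epicardium (7.44 to 20.1 CPM) and skeletal muscle (61.1 to 161.6 CPM) covered the remaining types, with Msln, Pax7 and the 4 globins listed in the erythroid set at 0 in every group. In these bulk libraries, fewer cells that express a gene and less RNA per cell cannot be told apart.

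Starts of members that passed the test in Glut1 transgenic hearts are shown first, since these are the genes the results turn on. Each run is the 250 bases before a RefSeq transcription start, taken from GRCm38.p6, and none of these bases lies in an annotated exon. The first runs of Dmd, Dag1 and Sgca end at the 5′ end of the gene as GENCODE annotates it. The second run of Dmd ends at a start of a shorter form, 2099425 bases inside the gene. For Utrn and Lama2, which also passed, RefSeq gave only starts 7630 and 2816 bases inside the annotated gene, so their windows are not shown and do not describe the outermost start. Capitals mark every match to the motifs searched. The N box was spelled TTCCGG and is an Ets-type site known from synaptic genes of muscle, Utrn among them. The GC box of Sp-type factors was spelled GGGCGG in the search. For the E box, which bHLH factors bind, the letters were CANNTG in the windows. TEAD factors bind the MCAT site, searched as CATTCC on either strand. A site of the GATA factors was searched as AGATAA. The CArG box of serum response factor and the MEF2 site were searched by their usual patterns. Both strands were searched, and neighbouring or overlapping matches run together.
Dmd, at the 5′ end, chrX:82948620-82948869, plus strand: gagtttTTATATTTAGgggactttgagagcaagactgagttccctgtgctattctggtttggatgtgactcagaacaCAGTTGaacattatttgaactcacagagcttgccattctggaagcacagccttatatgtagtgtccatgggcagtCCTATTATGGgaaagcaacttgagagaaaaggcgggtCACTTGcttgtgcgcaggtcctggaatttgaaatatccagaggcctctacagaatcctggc
Dmd, inside the gene, chrX:85048045-85048294, plus strand: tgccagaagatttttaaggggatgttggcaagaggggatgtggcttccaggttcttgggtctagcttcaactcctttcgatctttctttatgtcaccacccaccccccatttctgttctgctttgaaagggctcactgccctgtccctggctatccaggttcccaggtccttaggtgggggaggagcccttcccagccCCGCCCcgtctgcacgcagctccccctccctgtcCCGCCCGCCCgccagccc
Dag1, chr9:108263959-108264208, minus strand: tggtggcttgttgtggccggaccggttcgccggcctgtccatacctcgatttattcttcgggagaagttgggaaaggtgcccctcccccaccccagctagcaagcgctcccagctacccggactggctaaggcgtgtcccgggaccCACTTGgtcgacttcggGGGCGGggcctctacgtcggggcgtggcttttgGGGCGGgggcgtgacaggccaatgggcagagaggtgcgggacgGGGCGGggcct
Sgca, chr11:94976328-94976577, minus strand: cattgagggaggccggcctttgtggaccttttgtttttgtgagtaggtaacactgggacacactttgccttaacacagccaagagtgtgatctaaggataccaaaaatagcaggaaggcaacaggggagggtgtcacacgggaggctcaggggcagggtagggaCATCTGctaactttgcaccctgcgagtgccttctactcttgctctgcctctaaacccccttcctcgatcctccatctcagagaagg

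The starts differed in composition. The Dag1 start was of the GC-rich kind, with 67.6% G and C and 21 CpG pairs, where the median over all 32851 windows was 52.4% and 6. The 5′ start of Dmd (45.2%, 2 CpG) and that of Sgca (52.8%, 4 CpG) had fewer CpG pairs than this median, while the inner start of Dmd (60.0%, 7 CpG) had more. In Dag1 the capitals are 3 GC boxes, at -87, -54 and -11 from the start, and an E box at -104. At the 5′ start of Dmd they are a MEF2 site at -244, E boxes at -173 and -61 and a CArG box at -98. At the inner start of Dmd they are 3 GC boxes, at -52, -18 and -14, the last pair overlapping, and in Sgca the 1 match is an E box at -86. RefSeq gave 11 windows for 8 members (Dtna had none), counted over 300 bases that include 50 after the start. Of these 11, 6 start within 1000 bases of the annotated 5′ end and 5 further inside the gene (1 each of Dmd, Utrn, Sgcd, Lama2 and Agrn). A GC box stood in 8 of the 11 and in 35.7% of all windows, and an E box in 8 of the 11 and in 72.3% of all windows. A CArG box stood in 2 of the 11 (1.63% of all windows), a MEF2 site in 1 (3.19%), a MCAT site in 1, that of Sgcd (14.7%), and neither the N box (14.9%) nor the GATA letters (11.2%) in any. The windows of Dag1 overlap each other, and a match describes letters, not a site in use.

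Per length of transcript, dystroglycan was the most abundant member in every group. Its level was 117 ± 1.08 CPM per kb of the longest annotated transcript in Glut1 transgenic Tnnt2low (SD, n = 4), 71.1 ± 9.36 in Tnnt2high (SD, n = 4), 105.4 ± 9.37 in WT Tnnt2low (SD, n = 2) and 87.1 ± 13.4 in WT Tnnt2high libraries (SD, n = 2). Over all 12 libraries this put Dag1 at or above 95.9% of the tested genes per length. A middle group followed, made of the laminin α2 chain, α-sarcoglycan, utrophin, dystrophin and β-sarcoglycan, whose group means lay between 15.7 and 38.9 CPM per kb. Agrin (5.89 to 7.68 CPM per kb as group means), δ-sarcoglycan (4.52 to 6.3) and α-dystrobrevin (3.67 to 4.62) formed the lowest group.

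Within the middle group the order depended on the population. In Glut1 transgenic Tnnt2low libraries Lama2 came second, at 37.1 ± 2.51 CPM per kb (SD, n = 4), and lay above Utrn (26.8 ± 3.45), Sgca (25 ± 1.96) and Dmd (24.5 ± 3.41), whose ranges overlapped. In Glut1 transgenic Tnnt2high libraries Sgca came second, at 35.6 ± 6.82 CPM per kb (SD, n = 4), and its range overlapped that of Lama2 (27.8 ± 1.62). Below them Dmd (18.9 ± 1.16), Utrn (16.8 ± 1.61) and Sgcb (16.4 ± 3.61) overlapped from neighbour to neighbour. In WT Tnnt2low libraries (n = 2) the order was Lama2, Sgca, Utrn, Dmd and Sgcb, at 38.9, 28, 26, 21.3 and 19 CPM per kb, with no overlap between neighbours. In WT Tnnt2high libraries (n = 2) the same order read 37, 35.7, 22.4, 19.7 and 18.7 CPM per kb, and only Sgca and Utrn did not overlap among these neighbours. At the bottom, Agrn, Sgcd and Dtna were apart from each other in Glut1 transgenic Tnnt2low and overlapped from neighbour to neighbour in Tnnt2high libraries. Measured per kb of all exonic bases in place of the longest transcript, Dag1 was first and Sgca second in all 4 groups.

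**Figure D1:**
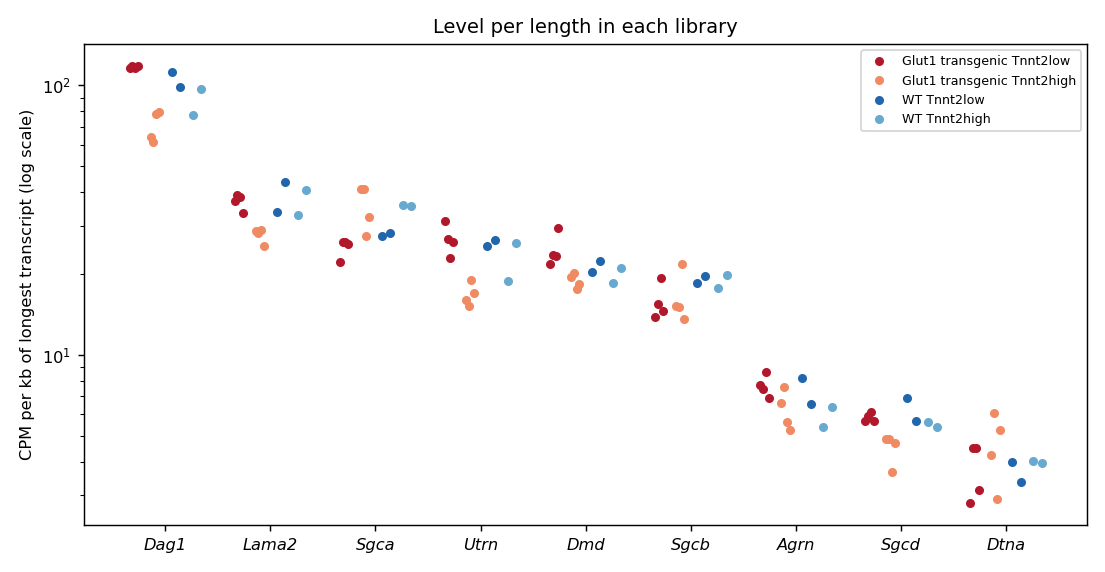
Level of each member per kb of its longest annotated transcript (CPM per kb, log scale) in the 12 libraries, 1 point per library, coloured by group. Dag1 lies highest in every group, at group means of 71.1 to 117, and Agrn, Sgcd and Dtna lie lowest, at 3.67 to 7.68.

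The partners were also set against each other within each library. Utrophin and dystrophin, which take the same place in the complex, were about even per length, with Utrn over Dmd at 1.12 ± 0.241 in Glut1 transgenic Tnnt2low (SD, n = 4), 0.895 ± 0.141 in Tnnt2high (SD, n = 4), 1.22 ± 0.0341 in WT Tnnt2low (SD, n = 2) and 1.13 ± 0.158 in WT Tnnt2high libraries (SD, n = 2). The ranges of the Glut1 transgenic populations (0.888 to 1.44 and 0.756 to 1.08) overlapped. The laminin α2 chain stood at 0.317 ± 0.0221 of the dystroglycan level in Glut1 transgenic Tnnt2low and at 0.398 ± 0.0659 in Tnnt2high libraries (SD, n = 4 each), again with overlapping ranges (0.284 to 0.331 and 0.319 to 0.457). Agrin, the other matrix ligand, stood at 0.0656 ± 0.00648 and 0.0906 ± 0.0269 of dystroglycan (SD, n = 4 each). α-Sarcoglycan was above β-sarcoglycan in each library, with group means of 1.47 to 2.28, and δ-sarcoglycan below it, with group means of 0.289 to 0.376.

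The first question was whether the populations of the Glut1 transgenic heart differed in the complex. In Tnnt2low cells dystroglycan, utrophin, dystrophin and laminin α2 were higher, by 1.3 to 1.65 times, and α-sarcoglycan was lower, at 0.702 of its Tnnt2high level. Thus 5 of 9 members passed the test, 4 of them higher and 1 lower in Tnnt2low, where 16.7% of all 12252 tested genes passed it, 8.42% higher and 8.33% lower. A gene passed at an adjusted p under 0.05 in edgeR's quasi-likelihood test with Benjamini-Hochberg adjustment over all tested genes, and every adjusted p below comes from that test. At an unadjusted p under 0.05 stood 6 of 9 members and 31% of all genes. The median log2 difference of the 9 members was 0.37, against -0.01 over all tested genes. With an offset for exonic length and GC content, described below, this median was -0.01 and 1 of 9 members, Dag1, was called. Libraries of the populations did not overlap for 6 of 9 members, where 22.2% of tested genes did not overlap.

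Dystroglycan, the centre of the complex, had the smallest p. Dag1 (chr9:108204634-108263958, minus strand, mm10) read 655.9, 668.4, 659.1 and 667.1 CPM in Glut1 transgenic Tnnt2low replicates 1 to 4 and 365.1, 348.8, 443.6 and 452 CPM in the Tnnt2high libraries of the same hearts. The Tnnt2low libraries were nearly alike and all above the Tnnt2high libraries, which fell into a lower pair (replicates 1 and 2) and a higher pair. The log2 difference was 0.72 (SE 0.11, 95% interval 0.47 to 0.96), with an adjusted p of 0.00202, and it had the same sign in 4 of 4 hearts, at 0.56 to 0.94.

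Utrophin showed a difference of similar size. Utrn (chr10:12382188-12869365, minus strand) read 387.3, 333.6, 283.5 and 323.9 CPM in Tnnt2low and 197.4, 188.4, 234.3 and 210 CPM in Tnnt2high libraries. Replicate 3 came closest to closing the gap, with the lowest Tnnt2low and the highest Tnnt2high value, and the groups did not overlap. The log2 difference was 0.68 (SE 0.13, 95% interval 0.4 to 0.96, adjusted p 0.00461), positive in 4 of 4 hearts, from 0.27 in replicate 3 to 0.97 in replicate 1. No 30-base word was shared between the 23821 words of the Dmd and the 17113 of the Utrn transcripts, so no stretch of that length could come from both.

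Dystrophin moved less. Dmd (chrX:82948870-85206141, plus strand), one of the largest genes of the genome, read 323.9, 350.2, 346.2 and 439.1 CPM in Tnnt2low and 289.8, 300.1, 261.4 and 273.1 CPM in Tnnt2high libraries. Replicate 4 gave the highest Tnnt2low value and, at a log2 difference of 0.69, the widest gap, while replicate 1 gave 0.16. The log2 difference over the hearts was 0.38 (SE 0.12, 95% interval 0.13 to 0.62, adjusted p 0.039), positive in 4 of 4 hearts. Leaving out any 1 of 7 of the 8 Glut1 transgenic libraries ended this call, Tnnt2low replicate 1 being the exception, and the difference then lay between 0.27 and 0.41. Counts over the union of exons join the full-length dystrophin with the short forms made from starts inside the gene, so the forms were not told apart. Dmd is X-linked, and hearts 4 and 8 (replicates 2 and 4) read Xist at no more than 4.65 CPM where the other libraries read 199 to 504.1 CPM. Their Dmd values (350.2 and 439.1 CPM in Tnnt2low, 300.1 and 273.1 CPM in Tnnt2high) took in the highest of each Glut1 transgenic population.

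Of the matrix ligands, laminin α2 passed the test and agrin did not. Lama2 (chr10:26980036-27619758, minus strand), the α chain of the main laminin of muscle, read 357.2, 376.1, 369.7 and 322.1 CPM in Tnnt2low and 277.1, 270.8, 277.7 and 244.6 CPM in Tnnt2high libraries. Replicate 4 was lowest in both populations and the groups did not overlap. The log2 difference was 0.41 (SE 0.12, 95% interval 0.16 to 0.66, adjusted p 0.0271), and the 4 hearts gave 0.37 to 0.47, the narrowest span among the called members. Leaving out 6 of the 8 Glut1 transgenic libraries, 1 at a time, ended the call, Tnnt2low replicate 4 and Tnnt2high replicate 3 being the exceptions, and the value then lay between 0.37 and 0.43. Of the 30-base words of Lama2, 3.541% stand in other genes, first among them Gm48084 on the opposite strand, and without strand their reads cannot be told apart.

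Agrin did not pass. Agrn (chr4:156165290-156197488, minus strand) read 66.3, 64.4, 74.2 and 59.5 CPM in Tnnt2low and 56.9, 65.2, 48.4 and 45.1 CPM in Tnnt2high libraries. Replicate 2 was level between the populations and its Tnnt2high value lay inside the Tnnt2low range. The log2 difference was 0.3 (SE 0.15, 95% interval -0.03 to 0.62, adjusted p 0.199), positive in 3 of 4 hearts. The interval takes in both no difference and one as large as that of dystrophin.

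The sarcoglycans went different ways. Sgca (chr11:94962791-94976327, minus strand) read 38.1, 45.1, 44.9 and 44.3 CPM in Tnnt2low and 71, 71.2, 47.4 and 56 CPM in Tnnt2high libraries. All Tnnt2low values lay below all Tnnt2high values, but replicate 3 was close to level. The log2 difference was -0.51 (SE 0.15, 95% interval -0.83 to -0.19, adjusted p 0.031), negative in 4 of 4 hearts, from -0.08 in replicate 3 to -0.9 in replicate 1. Leaving out Tnnt2low replicate 1, 2 or 3 or Tnnt2high replicate 1 or 2 ended this call, with values of -0.43 to -0.53.

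Its partners in the sarcoglycan unit were not called. Sgcb (chr5:73632749-73647790, minus strand) read 52.2, 58.1, 72.7 and 54.9 CPM in Tnnt2low and 57.5, 57, 82.1 and 51.5 CPM in Tnnt2high libraries. Replicate 3 was highest in both populations and the ranges overlapped, with a log2 difference of -0.06 (SE 0.16, 95% interval -0.41 to 0.29, adjusted p 0.843). Sgcd (chr11:46896253-47988969, minus strand) read 25.1, 26.3, 27.2 and 25.3 CPM in Tnnt2low and 21.6, 21.6, 16.4 and 20.9 CPM in Tnnt2high libraries. These did not overlap, and its log2 difference of 0.37 (SE 0.17, 95% interval 0.01 to 0.72), positive in 4 of 4 hearts, had an adjusted p of 0.145 on 66 to 263 reads per library. For Dmd, Utrn, Dag1, Sgca, Sgcd and Lama2, the members without overlap, the exact two-sided permutation test gave p = 0.0286, the smallest that 4 against 4 libraries allow and the value that any member without overlap must have. It takes the 8 libraries as independent, although each heart gave 1 of each population, and an exact test with the labels exchanged within the 4 hearts cannot go below p = 0.125.

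α-Dystrobrevin was the most variable member in Glut1 transgenic libraries. Dtna read 17.7, 28.3, 28.2 and 19.8 CPM in Tnnt2low and 26.6, 38.3, 18.3 and 33 CPM in Tnnt2high libraries, from 74 to 252 reads. It was lower in Tnnt2low in 3 of 4 hearts and higher in replicate 3, and its log2 difference of -0.31 (SE 0.23, 95% interval -0.8 to 0.19) had an adjusted p of 0.404. Its coefficient of variation, 23.6% in Tnnt2low and 29.6% in Tnnt2high libraries, was the highest among the members in both, against 0.92% and 13.2% for Dag1. In WT (n = 2 each) it was 12.5% in Tnnt2low, below Lama2 (18.2%), and 0.993% in Tnnt2high, below Utrn (22.7%).

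**Figure D2:**
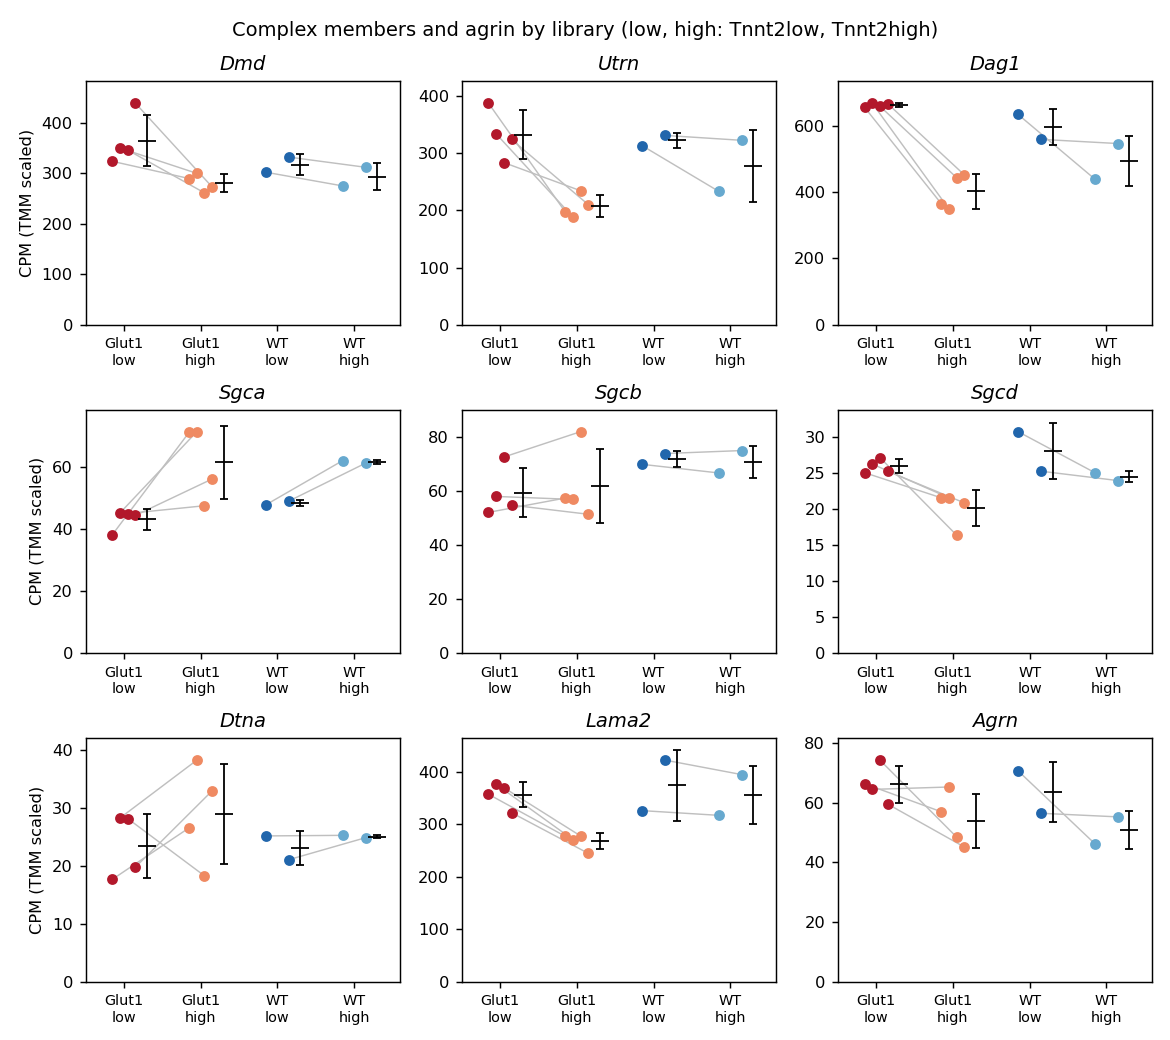
CPM of each member in the 12 libraries, 1 point per library, with grey lines joining the populations of one heart (Glut1 transgenic) or one WT number and black bars giving the mean and SD of each group (n = 4 or 2). Dag1, Utrn, Dmd and Lama2 fall from Tnnt2low to Tnnt2high in all 4 Glut1 transgenic hearts, and Sgca rises.

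The members that rose are encoded by long transcripts, and length moved with the comparison across all genes. In Glut1 transgenic hearts the median log2 difference was 0.39 over the 2973 tested genes with a longest transcript over 5 kb, 0.56 over the 328 with one over 10 kb and -0.52 over the 2434 with one under 2 kb. Of those over 5 kb, 25.1% were called higher and 1.88% lower in Tnnt2low, and of those under 2 kb 0.205% were called higher and 25% lower. Among the members 6 have transcripts over 5 kb, and 4 of these 6 were called higher. Those 4 are Dmd (14.91 kb), Utrn (12.38 kb), Lama2 (9.61 kb) and Dag1 (5.66 kb), and the other pair are Agrn (8.61 kb) and Dtna (6.3 kb). Sgca (1.72 kb), the member that fell, is the only one under 2 kb, and Sgcb (3.79 kb) and Sgcd (4.45 kb) lie between.

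Dystroglycan kept its call when the counts were adjusted for length and GC content, and the other 4 did not. With an offset for both, fitted in each library, the log2 difference of Dag1 was 0.54 (SE 0.1, edgeR adjusted p 0.0144), while 5.1% of all genes were called. This adjustment did not level the genes by transcript length. Genes with a longest transcript over 5 kb kept a median log2 difference of 0.16, and those over 10 kb 0.18. Over all tested genes the adjusted median was 0. How much of the 0.54 of Dag1 goes with this remaining trend was not tested. In the same fit Utrn read 0.25 (SE 0.12, 95% interval 0 to 0.5, adjusted p 0.234) and Sgca -0.11 (SE 0.14, adjusted p 0.678). Dmd read -0.02 (SE 0.12, 95% interval -0.27 to 0.23, adjusted p 0.944) and Lama2 -0.01 (SE 0.13, 95% interval -0.29 to 0.27, adjusted p 0.986). Dtna, which was not called, read -0.71 (SE 0.24, 95% interval -1.23 to -0.2, adjusted p 0.099). The offset took each gene at all its exonic bases, which for some members far exceed the longest transcript. For Dtna these were 16.93 kb, where its longest transcript has 6.3 kb. Dmd was taken at 23.8 kb (longest transcript 14.91 kb), Utrn at 17.11 kb (12.38 kb) and Lama2 at 16.34 kb (9.61 kb). Dag1 was taken at 6.36 kb (5.66 kb) and Sgca at 1.74 kb (1.72 kb). An offset by the longest transcript was not tested. Reads counted to no exon, given above for each group, also moved with the populations, as did the fibroblast and endothelial sums, and their part in these differences was not tested.

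**Figure D3:**
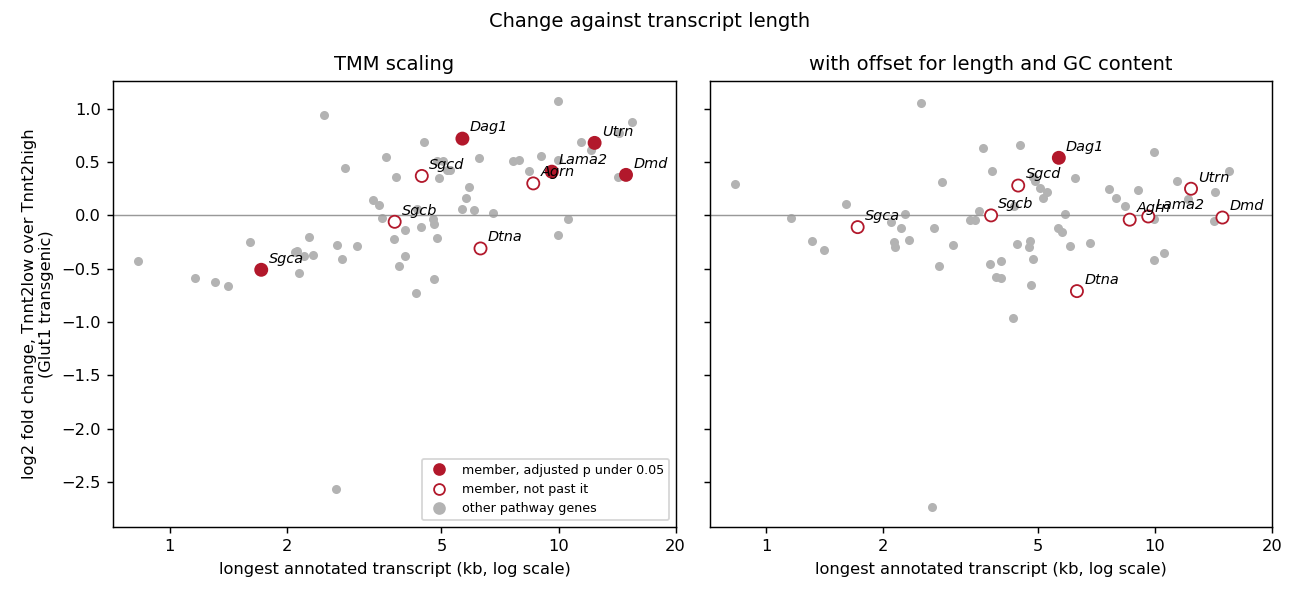
Log2 fold change of Tnnt2low over Tnnt2high in Glut1 transgenic hearts against the longest annotated transcript (kb, log scale), for the members (red, filled where the adjusted p is under 0.05) and the other genes of the pathway lists (grey), with TMM scaling on the left and with the offset for length and GC content on the right. On the left 5 members are filled, and on the right Dag1 alone, at 0.54.

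The second question was whether WT populations differed in the same way. In WT hearts no member passed the test: edgeR called 0 of 9 where 0% of all genes were called, with 0 of 9 at an unadjusted p under 0.05 (3.11% of all genes), and DESeq2 called 0 of 9. Dag1 read 634.3 and 559.3 CPM in WT Tnnt2low and 439.4 and 546.7 CPM in Tnnt2high libraries, without overlap, at a log2 difference of 0.28 (SE 0.16, 95% interval -0.07 to 0.62). The first WT number gave 0.53 and the second 0.03. Utrn read 313.2 and 331 against 233.2 and 322.4 CPM, a log2 difference of 0.21 (95% interval -0.18 to 0.61). Dmd, at 302.3 and 332.3 against 275.2 and 312.1 CPM, gave 0.11 (95% interval -0.24 to 0.46).

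α-Sarcoglycan and agrin had the widest WT differences. Sgca read 47.7 and 48.9 CPM in WT Tnnt2low and 61.9 and 61.1 CPM in Tnnt2high libraries, a log2 difference of -0.35 (SE 0.21, 95% interval -0.8 to 0.1). Agrn read 70.6 and 56.4 against 46.2 and 55.2 CPM, a log2 difference of 0.32 (SE 0.21, 95% interval -0.13 to 0.78), nearly all of it from the first WT number (0.61 against 0.03). Both were without overlap, as 4 of 9 members were (30.2% of tested genes), which 2 against 2 libraries give at an exact permutation p no lower than 0.333. The remaining differences were 0.2 for Sgcd, 0.07 for Lama2, 0.02 for Sgcb and -0.12 for Dtna, each with an interval that takes in 0. In simulated data of this design, 100 genes were changed 2-fold and 100 4-fold, drawn at random above a low CPM cut-off. The test found 15% of those changed 2-fold in the WT and 46% in the Glut1 transgenic comparison. Most 2-fold changes of genes so drawn would thus be missed in WT. These shares need not hold for the members, which read 24.1 to 536.7 CPM on average. They also come from fewer changed genes than the 2052 called in Glut1 transgenic hearts. In the fit of all 12 libraries the WT intervals of the members did not reach a 2-fold change. They went from -0.82 at the lowest (Dtna) to 0.78 at the highest (Agrn). Their width rests on a spread pooled over all 4 groups, thus in part on that between Glut1 transgenic hearts. Fitted on the WT libraries alone, the SE was larger for most members, as for Dag1 (0.23 against 0.16) and Lama2 (0.24 against 0.17). It was smaller for Sgcb (0.22 against 0.23) and Dtna (0.28 against 0.33). The spread between the WT libraries may be technical.

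The interaction asks directly whether the difference between populations depended on genotype. edgeR called 0 of 9 members (0% of all genes), with 1 of 9 at an unadjusted p under 0.05 (4.52% of all genes), and DESeq2 called 0 of 9. That member was Dag1, whose difference was 0.44 larger in Glut1 transgenic hearts on the log2 scale (SE 0.2, 95% interval 0.02 to 0.87, adjusted p 0.961). Utrn gave 0.47 (95% interval -0.02 to 0.95), Lama2 0.34 (-0.09 to 0.77) and Dmd 0.26 (-0.16 to 0.69), all with an adjusted p of 0.961. With the offset for length and GC content Dag1 gave 0.35 (unadjusted p 0.0644 in edgeR), Utrn 0.26 and Lama2 0.13, and 0 of 9 members had an unadjusted p under 0.05. Leaving out WT Tnnt2high replicate 1 or 2 moved Dag1 to 0.6 or 0.27 and Utrn to 0.69 or 0.2. The median over the members was 0.17, against 0.01 over all genes and 0.22 over genes with transcripts over 5 kb. A difference between genotypes in how the populations differ was thus not detectable at this depth and number of libraries.

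**Figure D4:**
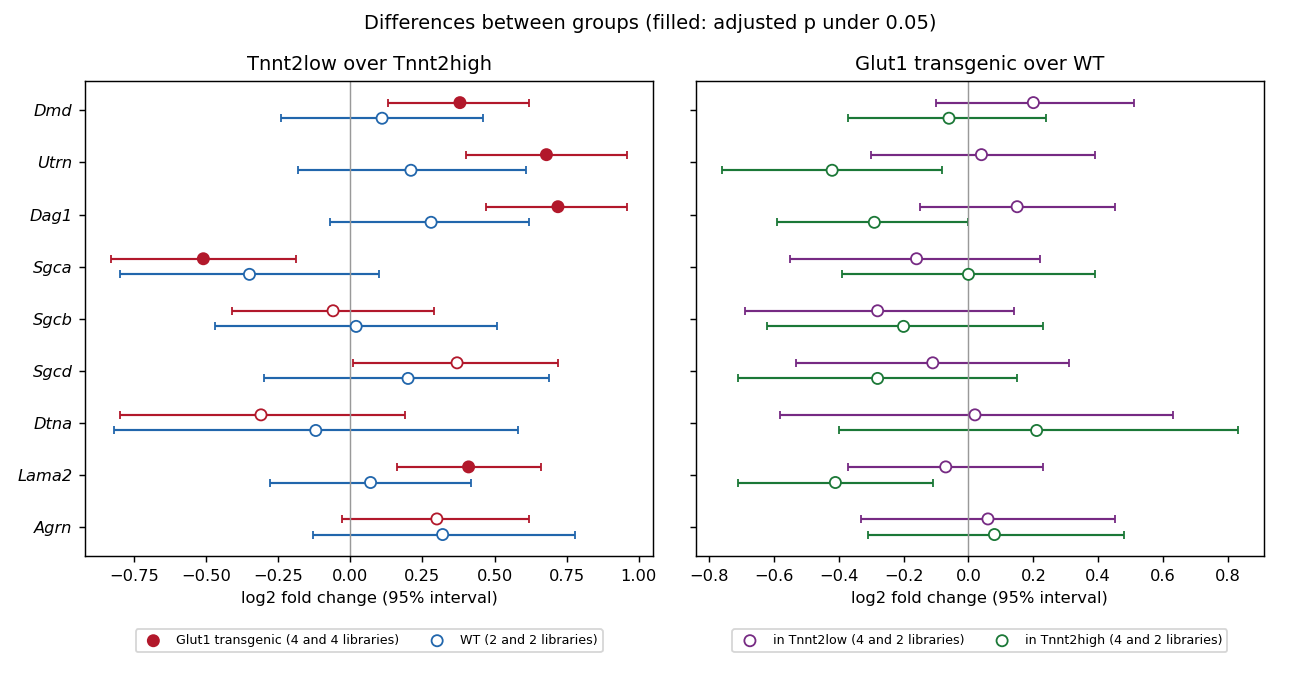
Log2 fold change of each member with its 95% interval, on the left Tnnt2low over Tnnt2high in Glut1 transgenic (red) and WT hearts (blue), on the right Glut1 transgenic over WT in Tnnt2low (purple) and Tnnt2high cells (green). Filled points have an adjusted p under 0.05 in edgeR's test; all 5 belong to the Glut1 transgenic population comparison.

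The third question was whether the transgene went with a change of the complex within a population. Hearts 4 and 8, low in Xist, read Ddx3y, a gene of the Y chromosome, at 56.4 to 65.2 CPM. All WT libraries read Ddx3y at 0. By these genes the Glut1 transgenic hearts included males and the WT libraries did not, and the part of sex was not tested. Among Tnnt2low cells edgeR called 0 of 9 members (0.00816% of all genes), with 0 of 9 at an unadjusted p under 0.05 (2.09% of all genes), and DESeq2 called 0 of 9. Dag1 read 655.9 to 668.4 CPM in the 4 Glut1 transgenic and 634.3 and 559.3 CPM in the WT libraries, a log2 difference of 0.15 (SE 0.14, 95% interval -0.15 to 0.45). Dmd differed by 0.2 (95% interval -0.1 to 0.51), Utrn by 0.04 (-0.3 to 0.39), Agrn by 0.06 (-0.33 to 0.45) and Sgcb by -0.28 (-0.69 to 0.14). Dag1 and Sgca, 2 of 9 members, did not overlap, where 11.4% of tested genes did not.

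Among Tnnt2high cells the median difference of the members was -0.2, against 0 over all genes, and none was called. edgeR called 0 of 9 members (0% of all genes), with 2 of 9 at an unadjusted p under 0.05 (5.31% of all genes), and DESeq2 called 0 of 9. Lama2 read 244.6 to 277.7 CPM in the Glut1 transgenic and 317 and 394.6 CPM in the WT libraries, without overlap, at a log2 difference of -0.41 (SE 0.14, 95% interval -0.71 to -0.11, adjusted p 0.899). Utrn read 188.4 to 234.3 against 233.2 and 322.4 CPM, with a small overlap, at -0.42 (SE 0.16, 95% interval -0.76 to -0.08, adjusted p 0.899). With the offset for length and GC content Lama2 gave -0.23 and Utrn -0.24 (unadjusted p 0.167 and 0.112 in edgeR), and 0 of 9 members had an unadjusted p under 0.05. Leaving out WT Tnnt2high replicate 1 or 2 moved Lama2 to -0.57 or -0.24 and Utrn to -0.64 or -0.16. Dag1, at 348.8 to 452 against 439.4 and 546.7 CPM, gave -0.29 (SE 0.14, 95% interval -0.59 to 0). Genes with transcripts over 5 kb had a median of -0.15 in this comparison, and those under 2 kb 0.2. Lama2 and Sgcd, 2 of 9 members, did not overlap, where 12% of tested genes did not. Both genotype comparisons share their libraries with the population comparisons above.

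The wider pathway was read from 6 lists. Of all tested genes in Glut1 transgenic hearts, 8.42% were called higher and 8.33% lower in Tnnt2low, at a median log2 difference of -0.01. Of those with transcripts over 5 kb, 25.1% were called higher. In Glut1 transgenic hearts, the other sarcoglycans and sarcospan had 1 of 3 tested genes called, higher in Tnnt2low (list median -0.02). This was Sspn, the tetraspan partner of the sarcoglycans, at 249.9 ± 9.17 against 155.5 ± 44.5 CPM (SD, n = 4 each) and a log2 difference of 0.69 (SE 0.18, edgeR adjusted p 0.0209). Sgcz had 0 reads in all libraries, which allows up to 0.0391 CPM (3 reads of 76804040).

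The cytosolic partners were split, with 3 of 10 higher and 2 of 10 lower and a median of -0.2. Those higher were Plec, the linker plectin (0.88, SE 0.15, adjusted p 0.00274), Ank2 (0.77, SE 0.13, adjusted p 0.00256) and Ank3 (0.52, SE 0.12, adjusted p 0.0105), ankyrins that help to place dystrophin at the membrane. Those lower were Cav3, the muscle caveolin that binds β-dystroglycan (-0.59, SE 0.16, adjusted p 0.0222), and Des, the intermediate filament desmin (-0.29, SE 0.09, adjusted p 0.045), all by edgeR's test. Nos1, the neuronal nitric oxide synthase that syntrophin holds in skeletal muscle, had 5 reads over the 12 libraries and was not tested.

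Among the laminin chains and other dystroglycan ligands 3 of 12 were higher and 1 of 12 lower, with a median of 0.11. The laminin γ1 chain Lamc1, a partner of laminin α2, read 524.5 ± 17.7 against 368.5 ± 50 CPM (SD, n = 4 each; 0.51, SE 0.11, edgeR adjusted p 0.0076). Lama5 (0.69, SE 0.16, adjusted p 0.00963) and Slit2, a guidance factor that binds dystroglycan (1.07, SE 0.31, adjusted p 0.0314), also rose. Bgn, the matrix proteoglycan biglycan, fell from 15.3 ± 6.73 to 2.57 ± 1.09 CPM (SD, n = 4 each; -2.57, SE 0.51, adjusted p 0.0048), beside the lower fibroblast sums of the Tnnt2low libraries, whose part in it was not tested.

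The enzymes that put the sugar chains on α-dystroglycan were not called, at 0 of 16 in edgeR and a median of -0.16. At an unadjusted p under 0.05 in edgeR stood 4 of 16, against 31% of all tested genes. Pomgnt1 read 95.7 ± 11.2 and 89.5 ± 10.5 CPM (SD, n = 4 each) in Tnnt2low and Tnnt2high libraries. In the agrin receptor pathway 1 of 4 tested genes was higher and none lower, with a median of -0.33. It was Lrp4, the agrin receptor of muscle, at 32.8 ± 1.81 against 22.8 ± 3.34 CPM (SD, n = 4 each; 0.52, SE 0.16, edgeR adjusted p 0.0377), while its partner kinase Musk had 0 reads in all 12 libraries.

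The laminin-binding integrin and costamere list, the other main link to the matrix, had 5 of 13 higher and 1 of 13 lower, with a median of 0.27. Flnc (filamin C, 0.56, SE 0.1, edgeR adjusted p 0.00337), Tln2 (talin 2, 0.61, SE 0.13, adjusted p 0.00566), Vcl (vinculin, 0.43), Tln1 (0.42) and Itgb1 (the β1 integrin, 0.36) rose, and Itgb1bp2, the chaperone melusin, fell (-0.62, SE 0.13, adjusted p 0.0066). With the offset for length and GC content the calls over the 6 lists were Sspn (1 of 3 in its list), Plec (1 of 10) and Itgb1 (1 of 13), higher, and Bgn (1 of 12), lower. The glycosylation list had 0 of 16 and the agrin receptor pathway 0 of 4, where 5.1% of all tested genes were called. In the other 4 comparisons edgeR called none of these list genes, where at most 0.00816% of all tested genes were called. Counts at an unadjusted p under 0.05 in edgeR were small in any list. Between WT populations the most was 1 of 4, in the agrin receptor pathway (3.11% of all genes). By genotype it was 0 in Tnnt2low (2.09%) and 4 of 12 in Tnnt2high, among the laminin chains and ligands (5.31%). In the interaction it was 3 of 12 of that same list (4.52%).

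The genes whose pattern over the 12 libraries was most like that of a member were read from centred log2 CPM. Nearest to Dag1 were Zfp106, Golga4 and Iqsec1, with a root mean square difference of 0.0459, 0.0608 and 0.0609, where Dag1 itself spread by 0.333 around its mean. Nearest to Dmd were Cul5, Pgrmc2 and Usp28, at 0.0816, 0.0943 and 0.0976 against a spread of 0.195. Nearest to Agrn were Armc8, Cyth3 and Tapt1, at 0.109, 0.112 and 0.126 against 0.224.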

How the data were processed

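Gene counts of 12 libraries were used as deposited. The authors sequenced single-end reads of 50 bp, checked them with FastQC, trimmed bases under Phred 20, aligned with HISAT2 to mm10, and made raw counts per gene with HTSeq, taking all exons of all isoforms of a gene together. They tested these with DESeq2. For versions, counting mode and strand, nothing was given in the sources used here. The labels call the extract heart tissue and name groups by Mitotracker signal, while the paper describes sorted cells and pairs Mitotracker with Tnnt2; the latter was followed. The 5 total rows that name no gene stayed out of library sizes and tests.

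The main test was edgeR's (version 4.0.16, in R 4.3.3), with filterByExpr, TMM scaling, 4 groups in 1 fit of 12 libraries, quasi-likelihood test, Benjamini-Hochberg adjustment over 12252 genes, threshold 0.05. Alternatives used DESeq2 1.42.0, other scaling, filters and libraries, and an offset for exonic length and GC content (loess, span 0.3, 12189 genes). Permutation tests were exact and two-sided on log2(CPM + 0.5). The script was checked on simulated counts (11999 genes tested). Reads in genes numbered 4065306 to 9815069 per library, and a biological coefficient of variation of 0.314 limits small differences. Length, GC content and mm10 coordinates came from GENCODE vM21, matched for 24052 genes by symbol (98.49%, 676 through an older symbol), and start sequences from RefSeq (GRCm38.p6).

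Members and lists were chosen with earlier results of these data known. Genes named were all 9 members, from each list up to 2 per direction with the smallest p among those called or else the 2 of highest mean CPM, the 3 of most like pattern for Dmd, Dag1 and Agrn, and Tnnt2 and Slc2a1. Ank3, Slit2, Vcl, Tln1, Itgb1, Sgcz, Nos1, Musk, Xist, Ddx3y and the markers named at 0 were added after their values were seen. A gene that this rule names is not reported here. Replicate numbers pair the libraries, since the labels name 1 heart for both populations of each Glut1 transgenic replicate. Deviations of same-numbered libraries from their group means correlated at 0.107 to 0.226 in Glut1 transgenic and 0.271 in WT libraries. In Glut1 transgenic hearts the best library of another number gave 0.0352 to 0.12, closest for heart 4 (0.131 against 0.12). With 2 WT libraries a population the deviations mirror each other, so 0.271 is a single value. Figures were drawn in Python 3.11.15 with matplotlib 3.10.9.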

Additional observations from a re-analysis of the deposited data

Results flagged for a closer look

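Among 18 sets of 4 Glut1 transgenic libraries (9 members in each population), 2 held a library far from the other 3, where chance flags about 1 set in 20. Sgca read 38.1 CPM in Tnnt2low replicate 1, while the other replicates read 44.3 to 45.1 CPM, a gap of 0.877 of the whole range, past Dixon's critical value for 4 samples. Without that library the Sgca difference was -0.46 on the log2 scale (edgeR adjusted p 0.0948). Sgcd read 16.4 CPM in Tnnt2high replicate 3, while the others read 20.9 to 21.6 CPM, a gap of 0.857 of the range.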

How the results depend on the processing

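In Glut1 transgenic hearts the same 5 members were called by DESeq2 (all 12 libraries or only the groups compared), by edgeR on only the groups compared, with DESeq2 size factors, without a filter on low counts, with a robust fit and with the replicate block by heart. The offset for length and GC content left 1 of them, Dag1, and so did the replicate block with that offset. Under the offset Dmd read -0.02 and Lama2 -0.01, and under the block with the offset -0.03 and -0.01. Leaving out 1 library gave 2 to 5 members: 2 without Tnnt2low replicate 2 or 3 or Tnnt2high replicate 1 or 2, 3 without Tnnt2low replicate 1 or Tnnt2high replicate 4, 4 without Tnnt2low replicate 4 or Tnnt2high replicate 3, and 5 without any 1 WT library. Utrn and Dag1 were called in each of these. Without hearts 4 and 8, those male by Xist and Ddx3y, 0 members and 0 of all genes were called by edgeR, with Dag1 at 0.7 (adjusted p 0.109). The cause was not tested, and that fit keeps 2 libraries a population. Under the alternatives Dag1 ranged from 0.54 to 0.78 and Utrn from 0.24 to 0.74. Over all genes, 2052 were called at first, 625 with the offset, 980 with the block and offset, and 1237 to 2127 when 1 library was left out. In the other 4 comparisons 0 members were called under each alternative run, while calls over all genes ranged from 0 to 10 between WT populations, 0 to 11 and 0 to 13 by genotype in Tnnt2low and Tnnt2high, and 0 to 9 in the interaction. The replicate block left the member calls of both population comparisons and the interaction as they were, with 2337 of all genes called in Glut1 transgenic and 2 in WT hearts. It could not be fitted by genotype, since each heart has 1 genotype. Differences changed sign in 11 of 198 values for the Glut1 transgenic and 12 of 198 for the WT populations, and in 10, 17 and 11 of 180 for genotype in Tnnt2low, genotype in Tnnt2high and the interaction. With 66 to 263 reads of Sgcd and 74 to 252 of Dtna in Glut1 transgenic libraries, small differences of these members were not detectable.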
